A study of Mus musculus with 14 samples.

Results

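Rps21, Rpl38, Rpl39 and Rps27rt are 4 genes for proteins of the cytosolic ribosome, taken by their symbols from a hippocampal RNA-seq table of 7756 genes. They were picked because their counts differed between the groups of these mice more than those of most other ribosomal protein genes. Their levels and fold changes are therefore given as a description, without a p-value. All 4 genes were among the 7338 that passed the filter on low counts, a mean of at least 40 counts in every group.

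The study asked how intermittent hypoxia, used as a model of obstructive sleep apnea, changes hippocampal gene expression. All mice were wild-type C57BL/6J males aged 8 weeks at the start, and the exposure lasted 28 days. By the methods, maze and passive avoidance tests came between the exposure and the collection of the hippocampi. Control samples (n = 4) were from mice kept at 21% oxygen. Mice of the intermittent hypoxia samples (IH, n = 5) breathed 10% and 21% oxygen by turns, each cycle lasting 2 min, during 8 h a day, and those of the sustained hypoxia samples (SH, n = 5) breathed 10% oxygen for 8 h a day. The control mice belonged to an earlier, preliminary experiment, according to the methods. The experiment and the hypoxia therefore cannot be told apart in both comparisons with control. The methods name no such split between IH and SH, but describe different gas delivery systems for them. The system and the kind of hypoxia therefore cannot be told apart in IH vs. SH. Libraries were poly(A)-selected and held 7203660 to 11777100 counts over the genes of the table. Values are normalized counts, which are counts divided by the TMM-scaled library size relative to its mean. In bulk tissue, fewer cells of a type and less RNA per cell cannot be told apart.

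Hippocampal neuron markers were well covered, with 10 of 10 genes above 0 in all 14 libraries and summed levels of 142356 to 177505. Choroid plexus, an epithelium that lies next to the hippocampus, had markers that varied widely between libraries. The sum of its 10 markers ran from 910.3 to 86648, and it was above 10000 in 6 libraries, namely control 4, IH 1, IH 4, SH 1, SH 2 and SH 5. The sum of 5 erythrocyte genes was 2926 to 3189 in control, 1649 to 2304 in IH and 2203 to 3081 in SH, so the IH and control libraries did not overlap. The sum of 6 endothelium markers was 4475 to 5129 in control, 5132 to 5337 in IH and 5290 to 5758 in SH, so both hypoxia groups lay above control. Of 7 microglia markers, 4 were in the table. Their sum was 3836 to 4243 in control, 3662 to 4408 in IH and 3040 to 3796 in SH, so SH lay below control. The part of erythrocytes, endothelium and microglia in the values of the 4 genes was not tested.

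The ribosome joins a small subunit, which decodes the mRNA, with a large subunit, which forms the peptide bonds and holds the tunnel through which the new chain leaves. Nearly all of its proteins are present once per ribosome, and most are encoded by a single working gene that has left processed pseudogenes, intronless copies of its mRNA, elsewhere in the genome. Translation of these mRNAs is controlled together by mTORC1 through a run of pyrimidines at the 5′ end, the TOP motif. Neurons use ribosomes in the cell body and in dendrites, where local protein synthesis serves synaptic plasticity.

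Rps21 encodes eS21 of the small subunit. It is located at chr2:179899114-179900249 on the plus strand (GRCm39, GENCODE annotation), with 6 exons and 249 coding bases. Rpl38 encodes eL38 of the large subunit, a protein known from Tail short mice, in which its loss alters the skeleton. It is located at chr11:114559350-114563166 on the plus strand, with 4 exons and 210 coding bases. Rpl39 encodes eL39, a very small protein in the wall of the exit tunnel, and is X-linked at chrX:36345092-36349130 on the minus strand, with 3 exons and 153 coding bases. Among 63 ribosomal protein genes of the table, counted from the shortest coding sequence, Rpl39 ranked 2, Rpl38 ranked 5 and Rps21 ranked 6, against a median of 435.0 bases.

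Rps27rt is a single-exon retrogene of Rps27, the gene of the small subunit zinc-finger protein eS27. It is located at chr9:114811434-114811807 on the minus strand, inside Osbpl10, which is transcribed from the other strand. Rps27 itself has 4 exons and is located at chr3:90119819-90120977 on the minus strand. The pair had 0 differences over 255 coding bases including the stop codon, and the identical stretch reached 345 bases. The sequence is shown because the counts of Rps27rt depend on how reads of this stretch were assigned. Capitals mark the bases on each side of the 3 exon junctions of Rps27, none of which interrupts the retrogene.

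Rps27 and Rps27rt, shared coding sequence: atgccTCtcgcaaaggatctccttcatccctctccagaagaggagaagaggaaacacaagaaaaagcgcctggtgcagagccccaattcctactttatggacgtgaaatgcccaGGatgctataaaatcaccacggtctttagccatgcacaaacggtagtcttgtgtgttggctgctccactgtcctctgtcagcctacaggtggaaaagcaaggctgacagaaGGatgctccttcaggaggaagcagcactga

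All 194 windows of 150 bases, the length of a single read, in the Rps27rt mRNA occurred in the spliced mRNA of Rps27. A read of that length from within this mRNA therefore matched both genes equally well. In the other direction, 52.4% of the windows in the Rps27 mRNA occurred in Rps27rt.

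The other members differed from their copies to different degrees. Their coding sequences are printed with the bases that differ in the closest genomic copy in capitals.

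Rps21: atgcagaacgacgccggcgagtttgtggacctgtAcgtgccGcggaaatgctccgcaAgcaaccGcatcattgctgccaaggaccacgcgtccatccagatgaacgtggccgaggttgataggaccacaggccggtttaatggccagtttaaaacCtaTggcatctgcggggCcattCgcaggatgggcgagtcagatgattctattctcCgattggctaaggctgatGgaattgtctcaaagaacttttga

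Rpl38: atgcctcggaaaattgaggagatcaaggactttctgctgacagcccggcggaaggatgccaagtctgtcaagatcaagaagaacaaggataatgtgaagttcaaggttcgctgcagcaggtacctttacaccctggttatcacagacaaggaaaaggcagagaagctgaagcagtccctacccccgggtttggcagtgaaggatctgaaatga

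Rpl39: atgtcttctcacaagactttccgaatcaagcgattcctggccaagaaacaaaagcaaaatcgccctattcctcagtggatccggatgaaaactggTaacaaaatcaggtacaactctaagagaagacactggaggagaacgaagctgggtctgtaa

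Rps21 had 1 near-identical copy, defined as at least 95% identity over at least 90% of the coding sequence. This copy, the processed pseudogene Gm19810, differed at 10 coding bases and held 2 inserted bases, and 0 of 304 windows of 150 bases in the Rps21 mRNA matched the genome elsewhere. Rpl38 had 3 copies. The closest, Rpl38-ps2 at chr6:140692645-140692929, had 0 coding differences and 1 difference over 285 aligned bases. In the Rpl38 mRNA model of 502 bases, 135 of 353 windows (38.2%) had an exact match elsewhere. The part of reads shared with copies in the Rpl38 values was not tested. Rpl39 had 4 copies, and Rpl39-ps1 at chr15:102543417-102543775 differed from it at a single coding base, T96C, counted from the first base of the start codon. Of 1619 windows in the Rpl39 mRNA model of 1768 bases, 4 had an exact match elsewhere, while Rpl39-ps1 aligned with it over 359 bases. The median over the 63 ribosomal protein genes was 5.0 copies, with a maximum of 50.

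Rps21 was lower in IH than in both other groups. Its normalized counts were 2558, 2952, 3003 and 2765 in control, 1850, 1861, 2073, 2109 and 1890 in IH, and 3675, 2684, 3335, 3198 and 3378 in SH. The highest IH library lay below the lowest library of each other group. SH and control overlapped, since SH 2 fell within the range of the control libraries. The means were 2819 ± 202 in control (SD, n = 4), 1957 ± 124 in IH (n = 5) and 3254 ± 363 in SH (n = 5). The log2 fold change was -0.53 ± 0.08 (SE) for IH over control, 0.21 ± 0.08 for SH over control and -0.73 ± 0.08 for IH over SH. Rps21 in IH was thus at 0.694 times the control level and 0.601 times the SH level.

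Rpl38 was lower than control in both hypoxia groups, and lowest in SH. Its normalized counts were 1908, 2096, 2196 and 1830 in control, 1302, 1365, 1415, 1464 and 1316 in IH, and 1186, 1064, 1079, 1202 and 1240 in SH. The 3 groups did not overlap, although the highest SH library and the lowest IH library were close. The means were 2008 ± 168, 1372 ± 67.7 and 1154 ± 78.1 (SD). The log2 fold change was -0.55 ± 0.07 for IH over control, -0.80 ± 0.07 for SH over control and 0.25 ± 0.07 for IH over SH. Rpl38 in SH was thus at 0.575 times the control level.

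Rpl39 was lower than control in IH and higher than control in SH. Its normalized counts were 756, 815, 817 and 758 in control, 655, 520, 726, 561 and 610 in IH, and 1026, 1157, 1022, 1028 and 1192 in SH. The 3 groups did not overlap, and the distance from IH to control was the smaller one. The means were 787 ± 34.04, 615 ± 80.5 and 1085 ± 82.4 (SD). The log2 fold change was -0.36 ± 0.09 for IH over control, 0.46 ± 0.09 for SH over control and -0.82 ± 0.09 for IH over SH. Rpl39 in SH was thus at 1.38 times the control level, and in IH at 0.566 times the SH level.

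Rps27rt had the lowest mean in IH, but its libraries overlapped between all groups. Its normalized counts were 1077, 525, 752 and 1220 in control, 351, 633, 683, 162 and 337 in IH, and 248, 929, 982, 1060 and 711 in SH. Single libraries of a group differed several-fold, with SH 1 far below the other SH libraries and IH 4 the lowest of all. The means were 894 ± 314, 433 ± 219 and 786 ± 327 (SD). The log2 fold change was -1.05 ± 0.41 for IH over control, -0.19 ± 0.40 for SH over control and -0.86 ± 0.39 for IH over SH. In SH vs. control the value was 0.042 without SH 1, so its direction rested on that library. Without the 6 libraries rich in choroid plexus markers, Rps27rt was at -0.51 in IH vs. control and 0.38 in SH vs. control.

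**Figure D1:**
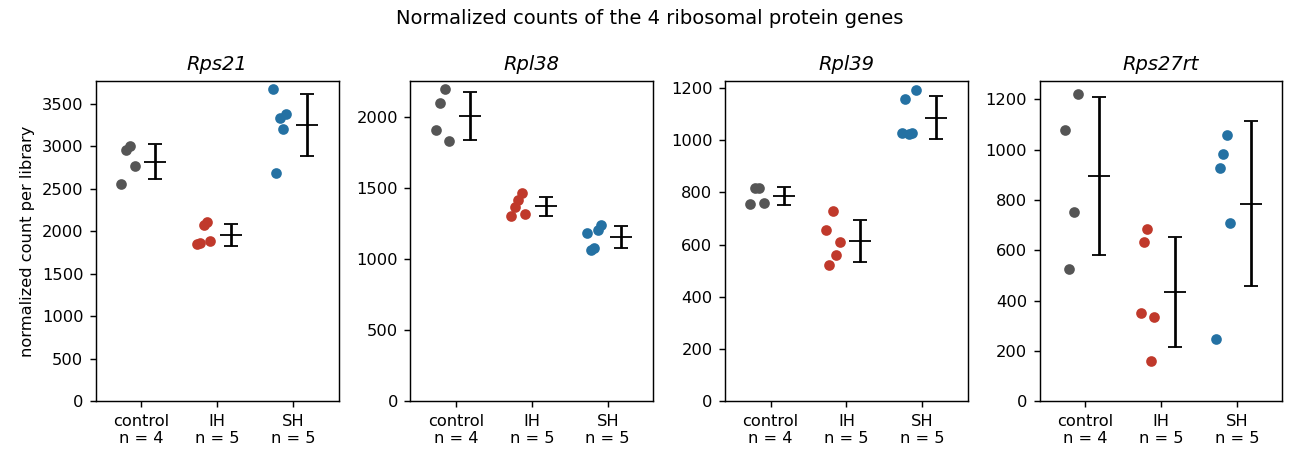
Normalized counts (y axis, linear from 0) of Rps21, Rpl38, Rpl39 and Rps27rt in control (n = 4), IH (n = 5) and SH (n = 5). Coloured points are libraries, and the black line with its bar is the mean ± SD. IH lies below both other groups for Rps21 and Rpl39, SH lies below both for Rpl38, and the Rps27rt libraries overlap between all groups.

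The order of the levels thus differed between the genes. For Rps21 and Rpl39 it was IH, control and SH from low to high, with control and SH of Rps21 not apart beyond the spread of the libraries. For Rpl38 it was SH, IH and control, with all neighbours apart. For Rps27rt it was IH, SH and control, with no neighbours apart. Of the 67 ribosomal protein genes and paralogs tested, 16 had the order of Rps21 and Rpl39, 21 had that of Rpl38 and 24 had that of Rps27rt.

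By edgeR's quasi-likelihood test over all genes, with an adjusted p under 0.05 as the limit, 3 of the 4 members were called in IH vs. control, all lower, beside 10.9% of all genes tested (4.85% lower, 6.08% higher). In SH vs. control 2 of 4 were called, Rpl38 as lower and Rpl39 as higher, beside 20.6% of all genes (10.5% lower, 10.2% higher). In IH vs. SH 2 of 4 were called, both lower in IH, beside 2.37% of all genes (0.899% lower, 1.47% higher). In the 8 libraries left without the 6 rich in choroid plexus markers, the members called were 2, 1 and 0 in the same order, beside 51, 26 and 0 of all 7338 genes (edgeR), with 637 at an unadjusted p under 0.05 in the last comparison. The log2 fold changes of the lost calls were then -0.36 for Rpl39 in IH and 0.37 in SH over control, and -0.75 for Rps21 and -0.73 for Rpl39 in IH over SH. These shares hold only within the deposited table, since the authors had already selected its genes on a difference from control. Libraries of the 2 groups did not overlap for 3, 2 and 3 members in the same 3 comparisons, beside 15.1%, 19.4% and 4.46% of all genes. Nothing is read from these counts, because the same contrasts were used to choose the members.

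The counts of Rps27rt and Rps27 moved in opposite directions from library to library. Rps27 had normalized counts of 778, 1533, 1271 and 776 in control, 1036, 846, 959, 1422 and 1205 in IH, and 1522, 819, 711, 782 and 1310 in SH. Control 2, IH 4 and SH 1, in which Rps27rt was lowest within its group, were the libraries with the highest Rps27 of their group. After the group means were subtracted from the log2 values, Pearson's r between both genes was -0.86 and Spearman's rho was -0.77 over 14 libraries, given as a description since the pair was chosen after its values were seen. The share of Rps27rt in the counts of the pair ran from 25.5% to 61.1% in control, from 10.2% to 42.8% in IH and from 14.0% to 58.0% in SH.

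Summed, the pair varied far less. Its normalized counts were 1855 to 2058 in control, 1387 to 1642 in IH and 1693 to 2021 in SH, with means of 1983 ± 88.9, 1527 ± 98.5 and 1815 ± 127 (SD). The within-group SD on the log2 scale was 0.09 for the sum, 0.43 for Rps27 and 0.78 for Rps27rt. All IH libraries lay below all libraries of the other groups for the sum, whereas SH and control overlapped. The log2 fold change of the sum was -0.38 ± 0.07 for IH over control, -0.13 ± 0.07 for SH over control and -0.25 ± 0.06 for IH over SH. The values of Rps27rt alone in the first and last of these comparisons were -1.05 and -0.86. How reads that matched both genes were divided is not given in the sources used here, and the part of this division in the Rps27rt values was not tested.

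**Figure D2:**
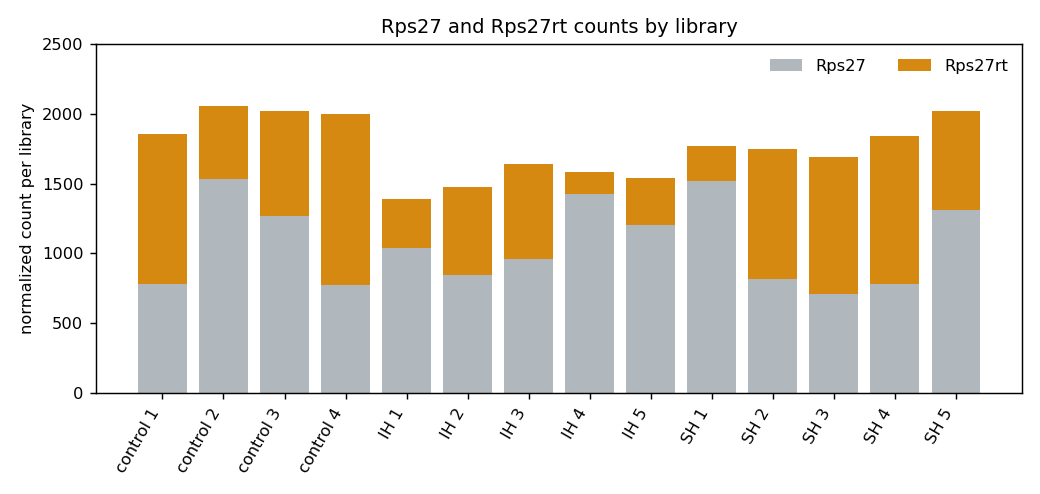
Normalized counts (y axis, linear from 0) of Rps27 in grey and Rps27rt in orange, stacked for each of the 14 libraries on the x axis. The height of the stack stays between 1387 and 2058, while the orange share changes from 10.2% to 61.1%.

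The 4 genes were then set beside the other ribosomal protein genes. Of 47 large subunit and 33 small subunit genes listed, 63 were tested, 3 of them members, which left 60 others. In IH vs. control, 14 of these 60 fell and 0 rose (edgeR, adjusted p), with 42 and 0 at an unadjusted p under 0.05, and DESeq2 called 20 and 0. Over all 7338 genes, 1054 were lower and 1132 higher at that unadjusted limit, and DESeq2 called 468 and 629. Their median log2 fold change was -0.20, beside -0.02 over all genes tested. The count of 14 depended on single libraries, since it was 36 without IH 3 and 6, 9, 9 and 9 without control 2, control 3, IH 1 and IH 4. In SH vs. control 25 fell and 2 rose, with a median of -0.13 beside 0.0035 over all genes, and the median was -0.21 without control 4. The 2 became 0 or 1 without any one of the control libraries, IH 2, SH 3, SH 4 or SH 5. In IH vs. SH 7 were lower and 4 higher in IH, with a median of -0.10 beside -0.0039 over all genes, the median was -0.056 without SH 5, and the 7 became 1 to 4 without any one of control 2, IH 1, IH 2, IH 4, IH 5, SH 3, SH 4 or SH 5. After trends on length and GC content were removed, 8 of the 60 were lower in IH and 11 in SH than in control, and without the 6 libraries rich in choroid plexus markers 0 and 1 were (18 and 24 at an unadjusted p under 0.05), beside 51 and 26 of all genes called by edgeR. The medians were then -0.17 and -0.20, and -0.022 in IH vs. SH.

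Measured against this pool, all 4 members lay closer to 0 in IH vs. control. When libraries were scaled by the 60 other ribosomal protein genes, the log2 fold change in IH vs. control was -0.32 for Rps21, -0.34 for Rpl38, -0.15 for Rpl39 and -0.88 for Rps27rt. In SH vs. control it was 0.36, -0.64, 0.62 and -0.03 for the same genes. In IH vs. SH it was -0.68, 0.30, -0.77 and -0.85. Rpl39 thus moved from -0.36 to -0.15 in the first comparison but only from -0.82 to -0.77 in the last. Without the 6 libraries rich in choroid plexus markers, IH vs. control was -0.54 for Rps21, -0.59 for Rpl38, -0.36 for Rpl39 and -0.51 for Rps27rt. In SH vs. control the values of the same genes were then 0.21, -0.85, 0.37 and 0.38, and in IH vs. SH they were -0.75, 0.26, -0.73 and -0.90.

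**Figure D3:**
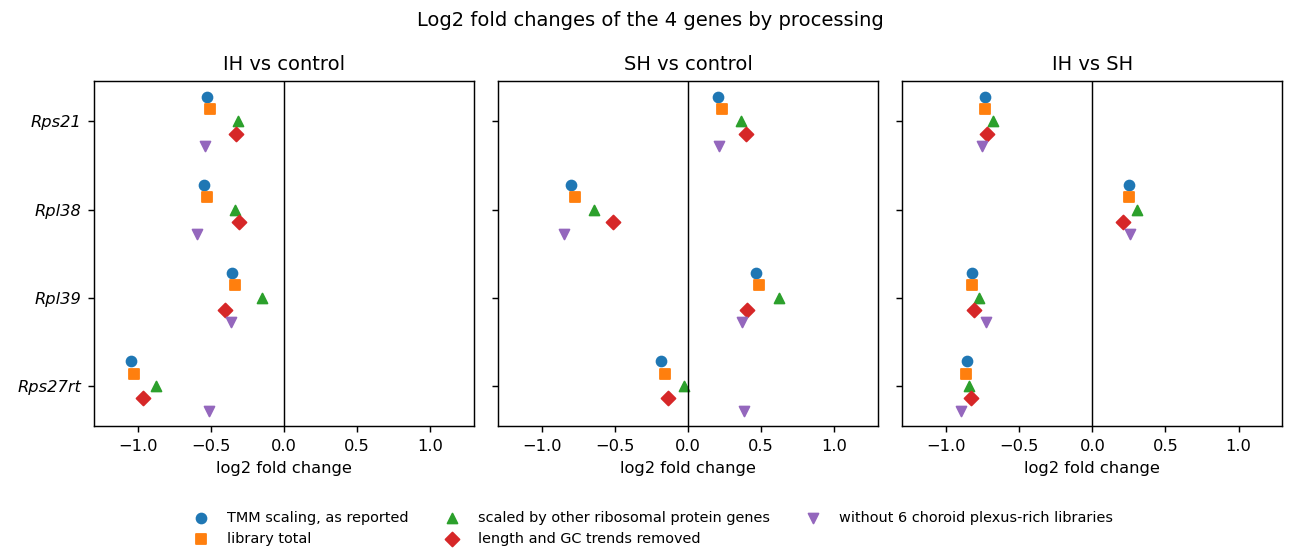
Log2 fold change (x axis) of the 4 genes in IH vs. control, SH vs. control and IH vs. SH, each under 5 ways of processing shown by symbol and colour. Rps21, Rpl38 and Rpl39 stay on one side of 0 in each panel, and Rps27rt crosses 0 in SH vs. control without the 6 libraries rich in choroid plexus markers (0.38).

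Between-group and within-group measures place the members among the 67 ribosomal protein genes and paralogs. The first is the range of the 3 group means on the log2 scale, which the choice of the members used. Rps27rt had the widest range (1.15), Rpl39 ranked 4 (0.83), Rpl38 ranked 5 (0.80) and Rps21 ranked 6 (0.73), against medians of 0.29 for the 60 others and 0.26 for all genes tested. Rps29 (0.85) and Rpl17-ps8 (0.83) lay just inside these ranks and Rpl22l1 (0.71) just below them, so the 4 members were not the 4 most divergent genes. The second is the SD within groups, which the choice did not use. It was 0.13 for Rps21, 0.10 for Rpl38 and 0.13 for Rpl39, close to the median of 0.12 for the 60 others. For Rps27rt it was 0.78 and ranked 1 of 67. The next were Rpl7a (0.60), named after its value was seen, and Rps27 (0.43).

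**Figure D4:**
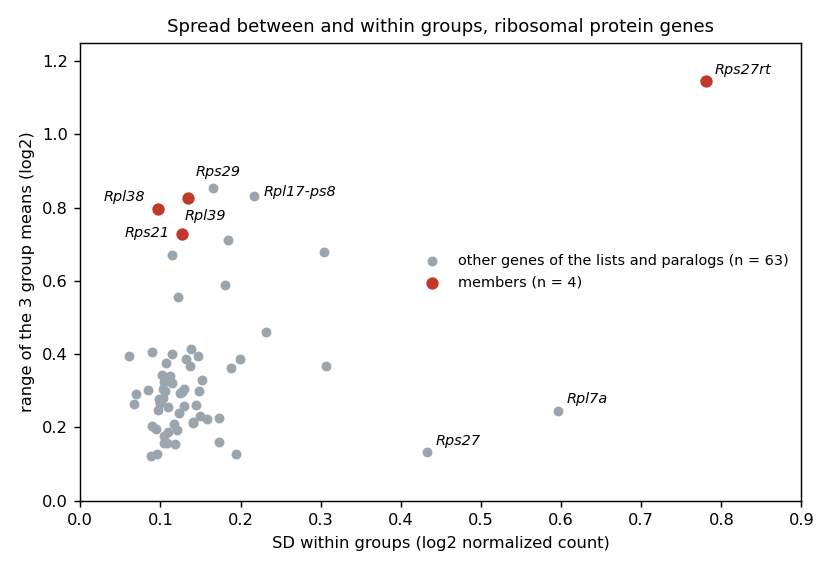
Range of the 3 group means (y axis, log2) against the SD within groups (x axis, log2 normalized count) for 67 ribosomal protein genes and paralogs, one point each, with the 4 members in red. Rps21, Rpl38 and Rpl39 combine a wide range with an SD of 0.10 to 0.13, and Rps27rt combines the widest range (1.15) with the largest SD (0.78).

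Other core ribosomal proteins with wide ranges followed several patterns. They were named by the range of the same group means, and their adjusted p-values are over all genes tested. Rps29, a small subunit zinc-binding protein, fell in both hypoxia groups like Rpl38, by 0.56 ± 0.10 in IH (adjusted p = 0.0040) and by 0.84 ± 0.10 in SH (adjusted p = 0.00027) on the log2 scale. Rps19, the gene mutated most often in Diamond-Blackfan anemia, fell in SH (-0.67 ± 0.08, adjusted p = 0.00015), as did Rps10 (-0.55 ± 0.08, adjusted p = 0.00067). Rps10 also fell in IH (-0.31 ± 0.08, adjusted p = 0.023), whereas Rps19 in IH was at -0.20 ± 0.08 (adjusted p = 0.10). The call of Rps10 in IH was lost in 8 of 27 alternatives, and its value was -0.098 (adjusted p = 0.43) after trends on length and GC content were removed. Rps28 shared the low level of Rps21 in IH, with -0.57 ± 0.11 against control (adjusted p = 0.0063) and -0.58 ± 0.11 against SH (adjusted p = 0.012). Rpl17 was higher in SH than in control (0.62 ± 0.19, adjusted p = 0.029), a call lost in 8 of 27 alternatives, and its value was 0.38 without SH 2. Rpl21 fell in IH (-0.42 ± 0.09, adjusted p = 0.011) and SH (-0.31 ± 0.09, adjusted p = 0.027), and Rpl29 fell in SH (-0.43 ± 0.13, adjusted p = 0.032). The SH calls of Rpl21 and Rpl29 were lost in 8 and 9 of 27 alternatives. After trends on length and GC content were removed, IH vs. control was -0.35 for Rps28 and -0.36 for Rps29, and SH vs. control was -0.26 for Rps10. At the other end, Rps3, Rpl30 and Rpl18 had ranges of 0.12, 0.13 and 0.13, and none of them was called in any comparison.

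The paralog list held 13 genes, of which Rps27rt, Rpl22l1, Rpl17-ps8 and Rpl36al were tested. Rpl22l1, the paralog of Rpl22, rose in SH vs. control (0.70 ± 0.12, adjusted p = 0.0016) and was lower in IH than in SH (-0.56 ± 0.11, adjusted p = 0.017). Rpl17-ps8 rose in SH (0.67 ± 0.17, adjusted p = 0.012) and was lower in IH than in SH (-0.84 ± 0.16, adjusted p = 0.012). Rpl17 was also lower in IH than in SH (-0.73 ± 0.18, adjusted p = 0.038), and the counts of Rpl17 and Rpl17-ps8 are uncertain, since Rpl17-ps8 differed from the Rpl17 mRNA at 2 of 623 aligned bases. Rpl36al was not called, with log2 fold changes of -0.17 ± 0.10 in IH and -0.22 ± 0.10 in SH. The table also held 3 rows of ribosomal protein-like genes outside the lists, Rpl6l, Rpl37rt and Rpl34-ps1.

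Within groups, r between the members ran from -0.54 to 0.69. Over 14 libraries with group means removed, Rps21 and Rpl38 had Pearson's r = 0.69 (permutation p = 0.012, adjusted p = 0.073 over 10 pairs) and Spearman's rho = 0.69 (permutation p = 0.015, adjusted p = 0.075), and r was 0.69 without the 2 libraries farthest out. Rpl38 followed the median of the 60 other ribosomal protein genes with r = 0.62 (permutation p = 0.015, adjusted p = 0.073) and rho = 0.66 (permutation p = 0.013, adjusted p = 0.075), or r = 0.56 without the 2 farthest libraries. Rps21 followed it with r = 0.54 (permutation p = 0.048, adjusted p = 0.16) and rho = 0.57 (permutation p = 0.050, adjusted p = 0.17). None of the 10 pairs passed the adjusted limit. Rpl39 had r = 0.53 with the pool (permutation p = 0.13, adjusted p = 0.27) and rho = 0.34 (permutation p = 0.32, adjusted p = 0.53), but r = 0.28 without the 2 farthest libraries. Rps27rt had r = 0.12 with the pool (permutation p = 0.72, adjusted p = 0.80), r = -0.54 with Rps21 (permutation p = 0.090, adjusted p = 0.22) and r = -0.41 with Rpl38 (permutation p = 0.16, adjusted p = 0.27). The rho of these 3 pairs was 0.042, -0.42 and -0.34 (permutation p = 0.91, 0.17 and 0.23), and r without the 2 farthest libraries was 0.063, -0.40 and -0.32. The remaining 3 pairs, Rps21 and Rpl39, Rpl38 and Rpl39, and Rpl39 and Rps27rt, had r of 0.0011, 0.13 and 0.14 (permutation p = 0.997, 0.62 and 0.70) and rho of -0.090, 0.10 and 0.068 (permutation p = 0.78, 0.70 and 0.85). Without the 2 farthest libraries their r was 0.35, 0.21 and 0.17.

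For each member the 3 genes with the most similar log2 counts over the 14 libraries were taken, group differences included. None was a ribosomal protein gene. Only 67 of the 7338 genes tested were listed ribosomal protein genes or paralogs, so nothing is read from this. The r values are a description, since these genes were picked for a high r in the same libraries. For Rps21 they were Kctd2, Lpcat3 and Grcc10, with r of 0.94, 0.94 and 0.92, and with 0.71, 0.69 and 0.66 after group means were removed. For Rpl38 they were 2510002D24Rik, Rasl10b and Eif3f, with r of 0.96, 0.96 and 0.95, and with 0.76, 0.58 and 0.48 after group means were removed. For Rpl39 they were Trappc2l, Snrpd2 and Park7, with r of 0.92, 0.91 and 0.90, and with 0.67, 0.56 and 0.37 within groups. For Rps27rt they were Cacng3, Rabl3 and Txnrd2, with r of 0.85, 0.82 and 0.81, and with 0.76, 0.84 and 0.73 within groups. Among the members themselves, Rps21 and Rpl39 had r = 0.85, in which the shared order of the groups is included, and Rps21 and Rpl38 had r = -0.03.

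Genes that build the ribosome or control its translation were taken from 3 further lists. Of 20 other TOP mRNAs, many of which encode translation factors, 5 were tested. Eif3f, a subunit of the initiation factor eIF3, fell in IH (-0.32 ± 0.06, adjusted p = 0.0047) and SH (-0.47 ± 0.06, adjusted p = 0.00029). Eef1g, of the elongation factor eEF1 complex (-0.19 ± 0.05, adjusted p = 0.017), and Naca, of the nascent chain-associated complex (-0.24 ± 0.08, adjusted p = 0.037), fell in SH, and Eif3k was at -0.21 ± 0.08 (adjusted p = 0.060). The median of the 5 was -0.11 for IH over control and -0.21 for SH over control.

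Of 49 ribosome biogenesis genes, 20 were tested. In IH vs. control 1 fell and 1 rose, beside 10.9% of all genes called, with a median of -0.08. The one that rose was Rrn3, the factor that brings RNA polymerase I to rDNA (0.25 ± 0.05, adjusted p = 0.010), and it also rose in SH (0.32 ± 0.05, adjusted p = 0.0015). The IH call of Rrn3 was lost in 4 of 27 alternatives, with 0.17 (adjusted p = 0.064) after trends on length and GC content were removed. Its SH call was lost in 2 of 27, with 0.21 (adjusted p = 0.052) after the same removal with the replicate block and 0.34 (adjusted p = 0.0997) without the 6 libraries rich in choroid plexus markers. Nop56, of the box C/D snoRNP, was lower in IH (-0.16 ± 0.05) at the limit (adjusted p = 0.050). Dkc1, the pseudouridine synthase of the box H/ACA snoRNP, rose in SH (0.33 ± 0.09, adjusted p = 0.019), and its partner Nhp2 was at -0.21 ± 0.12 (adjusted p = 0.22). In SH vs. control 0 of the 20 fell and 2 rose, beside 20.6% of all genes called, with a median of 0.05.

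Of 18 mTORC1 and TOP regulators, 9 were tested, and their median was 0.09 in each comparison with control. In IH vs. control, edgeR called 0 of the 9 (2 at an unadjusted p under 0.05) and DESeq2 called 1, beside 10.9% of all genes by edgeR. Sesn1 was at 0.33 ± 0.11 (adjusted p = 0.076) and Rheb at 0.18 ± 0.07 (adjusted p = 0.099) there. In SH, Rheb, the GTPase that activates mTORC1 (0.25 ± 0.07, adjusted p = 0.021), and Sesn1, a leucine-sensing inhibitor of the pathway (0.39 ± 0.11, adjusted p = 0.028), rose. Akt1s1, which encodes the mTORC1 inhibitor PRAS40 (-0.27 ± 0.09, adjusted p = 0.045), and Rps6kb2, an S6 kinase (-0.22 ± 0.08, adjusted p = 0.049), fell. These 4 of the 9 stood beside 20.6% of all genes called in SH vs. control (10.5% lower, 10.2% higher). Akt1s1 changed sign after removal of trends on mRNA or coding length and GC content, to 0.017 and 0.043. Calls near the limit depended on the processing. Of 27 alternatives, 22 lost the call of Nop56, 21 that of Rps6kb2, 18 that of Akt1s1, 13 that of Naca, 8 that of Sesn1, 5 those of Rheb and of Dkc1, 4 that of Eef1g and 14 that of Rpl17 in IH vs. SH.

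Features of the sequence followed the fold changes only loosely. Across the 63 ribosomal protein genes, Pearson's r between GC content and the log2 fold change was -0.24 for IH and -0.36 for SH over control, and r with coding length was 0.38 and 0.04. These values are across genes, which share libraries and are no independent replicates. Rpl38 had 58.8% GC, the third highest of the 63, Rps21 had 53.6% and Rpl39 had 46.2%, with a median of 51.5%. When trends on mRNA length and GC content were removed from each library, IH vs. control was -0.33 for Rps21 and -0.31 for Rpl38, and SH vs. control was 0.39 and -0.51. Rpl39 was then at -0.41 and 0.40, and Rps27rt at -0.96 and -0.14, in the same 2 comparisons. With coding length instead of mRNA length, Rpl39 was at -0.27 and 0.53, and Rps27rt at -1.02 and -0.17. The number of near-identical copies had r = 0.37 with the SD within groups over the same 63 genes. A run of a C and at least 4 further pyrimidines within 10 bases of the annotated start was found on the sense strand of 36.5% of the 63 genes, beside 31.0% of 7707 genes of the table, so these annotated starts did not set the ribosomal protein genes apart.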

How the data were processed

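Poly(A) RNA of 14 hippocampal samples was sequenced. The authors trimmed reads with fastp 0.23.4, aligned them to GRCm39 with HISAT2 2.2.1 and quantified them with StringTie 2.2.1. The authors deposited estimated counts per gene without scaling between samples, for 7756 genes. By the methods these were protein-coding, above a count limit in each group and different from control in processed signal, although the table also held pseudogenes such as Rpl17-ps8 and 418 genes under the mean of 40 used here. The strand setting and the treatment of reads with several matches are not given in the sources used here, although the library kit keeps strand. Counts with decimals, found in 10 genes, were rounded.

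Counts were tested with edgeR 4.0.16 (R 4.3.3), quasi-likelihood, TMM scaling, 1 fit of the 3 groups, over 7338 genes that averaged at least 40 counts in each group, with Benjamini-Hochberg adjustment. The fit was tested on simulated data. The SE was derived from the log2 fold change and its F statistic, and 0.5 was added before logs for means, SDs and correlations. Correlations were permuted within groups with 100000 resamples, 2-sided. Near-identical copies were sought in GRCm39 with BLAST, using GENCODE transcripts (7707 of 7756 genes matched).

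The 4 members, the gene lists and the tests were chosen with earlier results of these data known. Named genes were the members, the 10 listed ribosomal protein genes with the widest and the 3 with the narrowest range of group means, tested paralogs, the 3 genes most like each member and up to 4 genes of each other list by smallest adjusted p. Alternatives were DESeq2 1.42.0, other scalings and filters, a block for the replicate number, removal of length and GC trends (loess span 0.3), a fit of 2 groups alone, and leaving out each library. Trends on coding length, the sum of Rps27 and Rps27rt, and the fit without 6 libraries rich in choroid plexus markers were added after the data were examined. The labels do not state that each library is a separate mouse, so p-values measure the spread between these libraries, which may be technical. Libraries of a group differed by more than sampling noise (chi-square per degree of freedom of at least 8.96 over 26 pairs), and none was counted as a repeat. The range of depth over the libraries is given with the results.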

Additional observations from a re-analysis of the deposited data

How the results depend on the processing

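Rps21, Rpl38 and Rpl39 kept the sign of all 3 log2 fold changes under each of 28 alternatives run. Across them Rps21 was -0.57 to -0.32 in IH vs. control, 0.16 to 0.39 in SH vs. control and -0.80 to -0.68 in IH vs. SH. Rpl38 was -0.59 to -0.24, -0.85 to -0.46 and 0.21 to 0.30, and Rpl39 was -0.43 to -0.15, 0.37 to 0.62 and -0.89 to -0.73. Rps27rt, counted on its own under 27 alternatives, was -1.27 to -0.51 and -1.09 to -0.65 in IH vs. control and IH vs. SH, and in SH vs. control it was -0.37 to 0.042 with single libraries left out, positive only without SH 1, and it was also positive without the 6 libraries rich in choroid plexus markers (0.38). Why these values moved was not tested. The depth does not limit the members, whose lowest normalized count was 162.

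Scaling by the other ribosomal protein genes gave -0.32 for Rps21, -0.34 for Rpl38 and -0.15 for Rpl39 in IH vs. control, 0.36, -0.64 and 0.62 in SH vs. control, and 0.028 for the sum of Rps27 and Rps27rt in SH vs. control. Removal of length and GC trends gave 376 genes in IH vs. control and 417 in SH vs. control, with 8 lower and 1 higher, and 11 lower and 5 higher, among the other ribosomal protein genes, a median of -0.10 for these in IH vs. control, -0.33 for Rps21 and -0.31 for Rpl38 in IH vs. control, and 0.39 and -0.51 in SH vs. control. With coding length instead of mRNA length the counts were 343 and 432, the lower ribosomal protein genes 5 and 12, the median in SH vs. control -0.034, and the values -0.35 for Rps21 and -0.24 for Rpl38 in IH vs. control and 0.39 and -0.46 in SH vs. control. Akt1s1 in SH vs. control was 0.017 and 0.043 after removal of the trends on mRNA and coding length.

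With the replicate number as a block, 738, 1443 and 148 genes were called in IH vs. control, SH vs. control and IH vs. SH, against 802, 1514 and 174 without it. The numbers were not taken as pairs, since deviations of same-numbered libraries had r of -0.30 to 0.46 and 6 of 13 pairs were above 0.1. The block together with removal of length and GC trends gave 312 genes with 8 lower and 1 higher ribosomal protein genes in IH vs. control, 364 genes with 15 lower and 4 higher in SH vs. control, -0.33 for Rps21 and -0.32 for Rpl38 in IH vs. control, 0.39 and -0.52 in SH vs. control, and 0.023 for Akt1s1 in SH vs. control. In a fit of only the 2 groups compared, IH vs. SH had 64 genes, with 2 ribosomal protein genes lower, and SH vs. control had 1 ribosomal protein gene higher. DESeq2 called 294 in IH vs. SH, and scaling by the 80th percentile left 1 higher in SH vs. control.

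Without the 6 libraries rich in choroid plexus markers, 8 libraries remained, and edgeR called 51, 26 and 0 genes, with 1521, 1639 and 637 at an unadjusted p under 0.05. Of the other ribosomal protein genes, 0 were lower in IH vs. control (18 unadjusted), 1 was lower and 0 higher in SH vs. control (24 and 2 unadjusted), and 0 were lower and 0 higher in IH vs. SH (7 and 8 unadjusted). Leaving out single libraries gave 389 to 976 genes in IH vs. control, with 409, 389 and 523 without control 1, control 2 and control 4. It gave 908 to 1742 in SH vs. control, with 908 and 984 without control 1 and control 2, and 88 to 179 in IH vs. SH, where every IH or SH library but IH 5 and SH 1 lowered the count by more than 1.5 times. The median of the other ribosomal protein genes was -0.25 to -0.18, -0.21 to -0.098 and -0.13 to -0.056. Those that were lower numbered 6 to 36, 19 to 26 and 1 to 10, and the higher ones 0 to 0, 0 to 2 and 3 to 4. Of 29 calls of named genes, 2 held under all alternatives run, Rps29 and Eif3f in SH vs. control.

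The within-group r of Rps21 and Rpl39 was 0.00 and changed sign to -0.066, -0.0094, -0.38 and -0.32 with library total, 80th percentile and ribosomal protein scaling and without length and GC trends, and that of Rpl38 and Rpl39 changed to -0.26 and -0.22 with the last 2. Leaving out single libraries gave r of -0.19 to 0.25 for Rps21 and Rpl39, -0.12 to 0.41 for Rpl39 and Rps27rt and -0.21 to 0.23 for Rps27rt with the other ribosomal protein genes. Without IH 4, 2 pairs passed the adjusted limit, Rpl38 and Rps21 with the other ribosomal protein genes (r = 0.79, permutation, adjusted p = 0.0019, and r = 0.67, permutation, adjusted p = 0.043), within ranges of 0.54 to 0.79 and 0.47 to 0.67.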
